A study of Arabidopsis thaliana with 6 samples.

Results

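The 360 regions described here are NLP2-GFP binding peaks of Arabidopsis thaliana seedlings that were listed after nitrate supply, shared no base with any peak listed without nitrate, and lay in or beside a protein-coding gene. They were chosen by the measured lists themselves: a peak of the list made 30 min after nitrate (T30) had to share 0 bases with every peak of the nitrate-free list (T0), and its summit had to lie inside a protein-coding gene of the 5 nuclear chromosomes or within 1000 bp of either end of one. They made up 60.7% of the 593 T30 peaks and 75.2% of the 479 T30 peaks that shared no base with T0. In T30 seedlings the culture medium had been replaced by a 3 mM nitrate solution for 30 min, and in T0 seedlings it had been replaced by fresh solution without nitrogen. Seedlings of both groups were 14 days old by their label; the growth protocol gives 10 days in liquid medium with 3 mM nitrate followed by 3 days without nitrogen. All carried the nlp2-2 mutation in the Col-0 background together with a pNLP2::NLP2-GFP construct, so that the NLP2 promoter drove the tagged protein, and antibodies against GFP were used for chromatin immunoprecipitation followed by sequencing (ChIP-seq). The construct adds NLP2 sequence to the NLP2 locus that the line already has. Whole seedlings were used, so binding in few cells and weak binding in many cells cannot be told apart.

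NLP2 is a NIN-like protein, one of a family of plant transcription factors with an RWP-RK domain that binds DNA. Members of the family act early in the response to nitrate: in Arabidopsis, nitrate supply leads to accumulation of the related protein NLP7 in the nucleus, where it binds genes of nitrate uptake, nitrate reduction and their regulation. Reducing nitrate to ammonium and building ammonium into amino acids uses reductant and carbon skeletons, which plants draw from the oxidative pentose phosphate pathway, from glycolysis and from organic acids.

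The authors pooled 2 immunoprecipitated libraries for each list and applied a reproducibility filter, and 1 input library stood beside them at each time. The pooled lists hold no value per replicate, so here no spread between replicates, no error and no test can be given, and the labels do not say whether both libraries of a time were from different cultures. Read depth is unknown from the lists. The fold of a peak is the authors' own enrichment value and is used here only within the T30 list. Absence from the T0 list means that no peak was kept there: the lowest −log10 q kept was 20.4 at T30 and 16.1 at T0, and the T0 list held 579 peaks. The 360 peaks overlapped 0 of the 22 peaks called in the T30 input and 0 of the 87 called in the T0 input. The names of the pooled lists carry a mark that reads as without input, whose meaning is not given in the sources used here, so peaks over input signal may already have been taken out. Among the other 233 T30 peaks, 3 overlapped a T30 input peak and 32 a T0 input peak.

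Folds of the 360 peaks ran from 2.1 to 13.8, with a median of 2.85 and quartiles of 2.40 and 3.93. Their −log10 q ran from 20.4 to 1630, with a median of 52.9. A fold of at least 3 was reached by 167 of them (46.4%), against 84 of the other 233 T30 peaks (36.1%). A fold of at least 5 was reached by 49 of them (13.6%), against 22 of the others (9.44%). A fold of at least 10 was reached by 6 of them (1.67%), against 4 of the others (1.72%). They held 34 of the first 50 places of the T30 list and 70 of the first 100, beside their share of 60.7% of the whole list. Nitrate-only peaks farther from genes had a median of 3.06 over 119 peaks and included the highest fold of the list, 20.9. Peaks shared with T0 had lower medians within the T30 list, 2.41 over the 24 in or beside genes and 2.49 over the 90 farther away.

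**Figure D1:**
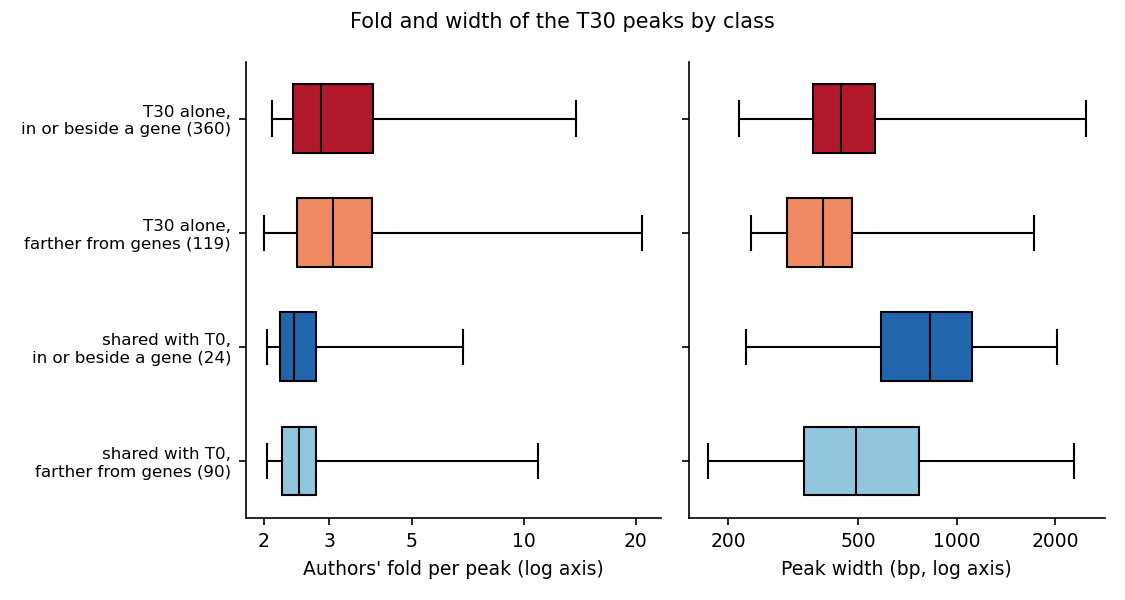
The authors' fold (left) and the peak width (right) of all 593 T30 peaks, both on log axes, in 4 classes given with their numbers of peaks. Boxes span the quartiles, the line in a box is the median and whiskers reach the lowest and highest peak; the 360 nitrate-only peaks in or beside genes have a median fold of 2.85 and a median width of 441 bp, and the 24 shared peaks in or beside genes a median fold of 2.41 and a median width of 830 bp.

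The peaks were narrow, from 216 to 2483 bp wide with a median of 441 bp. The 90 widest had a median fold of 3.59, and the 90 narrowest a median of 2.47. Width and fold did not run together at the wide end, since the 19 peaks of 1000 bp or more had a median fold of 2.75. The widest, 2483 bp on chromosome 5 from 4059966 to 4062448, had its summit inside DiT1, which encodes the plastid exchanger of 2-oxoglutarate and malate, and its fold was 6.47. The narrowest, 216 bp, was that of AT1G48745 with a fold of 2.17. The median distance from a member to the nearest T0 peak was 101 kb, and the same distance was not measured for other places in the genome. The smallest distance was 850 bp, and 16 of the 360 lay within 5000 bp of a T0 peak.

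Of the 6 members with a fold of at least 10, 5 are described here, and they stood at genes of several kinds. A peak with a fold of 12.4 lay inside NRT3.1 (AT5G50200, listed under the symbol WR3) on chromosome 5 from 20436086 to 20436744; its protein is the partner that high-affinity nitrate transporters need at the plasma membrane. The next, with a fold of 12.3, lay 797 bp from AT2G27520, and no other protein-coding gene was within reach of its summit. UPM1 (AT5G40850) held a summit inside it with a fold of 11.6; the enzyme makes the precursor of sirohaem, the cofactor of nitrite and sulfite reductase. ORG1 (AT5G53450) had a summit 672 bp outside it with a fold of 10.7. The last, at 10.0 on chromosome 5 from 4304460 to 4304977, lay 332 bp from the transaldolase gene TRA2 (AT5G13420) and 459 bp from its neighbour AT5G13430.

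Another 19 members complete the 25 of highest fold, down to 6.47. The plastid glucose 6-phosphate/phosphate translocator gene GPT1 and the tryptophan synthase beta-subunit gene TSB1 shared a peak with a fold of 8.48. AT1G32910 and AT1G32920 shared one of 8.40. PP2CA, a protein phosphatase that restrains abscisic acid signalling, had 7.88, and the cytosolic glyceraldehyde-3-phosphate dehydrogenase gene GAPC2 had 7.75. AT5G41670 and AT5G41680 shared a peak of 1893 bp with a fold of 7.63. NLP3, a gene of NLP2's own family, had 7.56, GILP had 7.43, LBD37 had 7.38 and AT4G10140 had 7.36. ROH1 and the monodehydroascorbate reductase gene MDAR6 shared a peak of 7.18. GGT1, a glutamate:glyoxylate aminotransferase of photorespiration, had 6.93 and AT1G25550 had 6.92. The glucose-6-phosphate dehydrogenase gene G6PD2 shared a peak of 6.88 with AT5G13100. The remaining peaks, between 6.47 and 6.77, lay at CAX1, AT1G70790, AT2G36570 (PXC1), AT3G47980, AT3G16565 and, as a shared peak, RFNR1 with AT4G05400. DiT1 and the neighbouring MYB46 shared the next peak, also at 6.47.

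**Figure D2:**
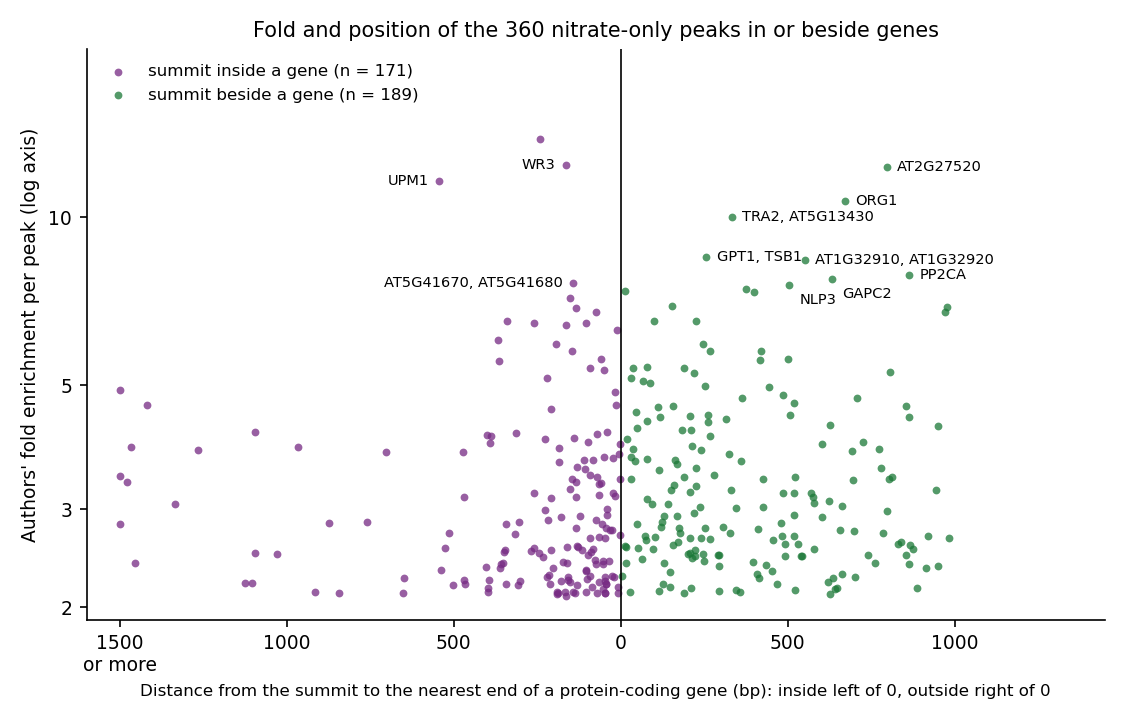
The authors' fold of each of the 360 peaks (log axis) against the distance of its summit to the nearest end of a protein-coding gene, inside genes to the left of 0 and outside to the right, with distances over 1500 bp drawn at the left edge. Each point is 1 peak and 11 of the highest are labelled with all their genes (WR3 is NRT3.1); summits inside genes have a median fold of 2.72 and those beside genes 3.04.

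Summits were spread nearly evenly over the inside and the outside of genes, with 171 inside (47.5%) and 189 beside (52.5%), although genes covered 72.6% of the bases where the rule could place one. Per Mb of such bases there were 2.65 summits inside genes and 7.78 beside them. Position was part of the rule, so these densities describe the members and are no test. Members inside genes had a median fold of 2.72 and a maximum of 13.8, and members beside genes a median of 3.04 and a maximum of 12.3. A fold of at least 5 was reached by 20 members inside genes and by 29 beside them. All 189 T30 summits that lay within 1000 bp outside a gene belonged to peaks absent from T0, since the 24 T30 peaks shared with T0 that met the distance rule all had their summit inside a gene. Among the 251 T0-only peaks that met the same distance rule, 93.6% had their summit inside a gene and the median width was 694 bp. Their median −log10 q was 18.5, below the lowest value kept in the T30 list, 20.4. The lists thus differ in how weak a peak they keep, and no contrast in position or width is read from this.

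Inside genes, summits crowded towards the ends. Of the 171, 100 (58.5%) lay within 200 bp of an end, a zone that holds 17.6% of the bases inside genes, and the median distance to the end was 162 bp. Their density was 9.72 summits per Mb in the outermost 100 bp, 7.83 in the next 100 bp and 0.714 deeper than 1000 bp, where 14 summits lay. Outside genes the density changed less with distance, from 6.86 per Mb in the first 100 bp to 11.5 between 201 and 300 bp and 5.80 in the last 100 bp before the limit. Over both sides, 268 of the 360 summits (74.4%) were within 500 bp of a gene end, and 47.4% of the allowed bases were. Strand was not available, so a gene's start and its end could not be told apart. The stretch between neighbouring genes that held a member had a median length of 1913 bp, and all such stretches, weighted by the bases that could hold a summit, had a median of 2157 bp.

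**Figure D3:**
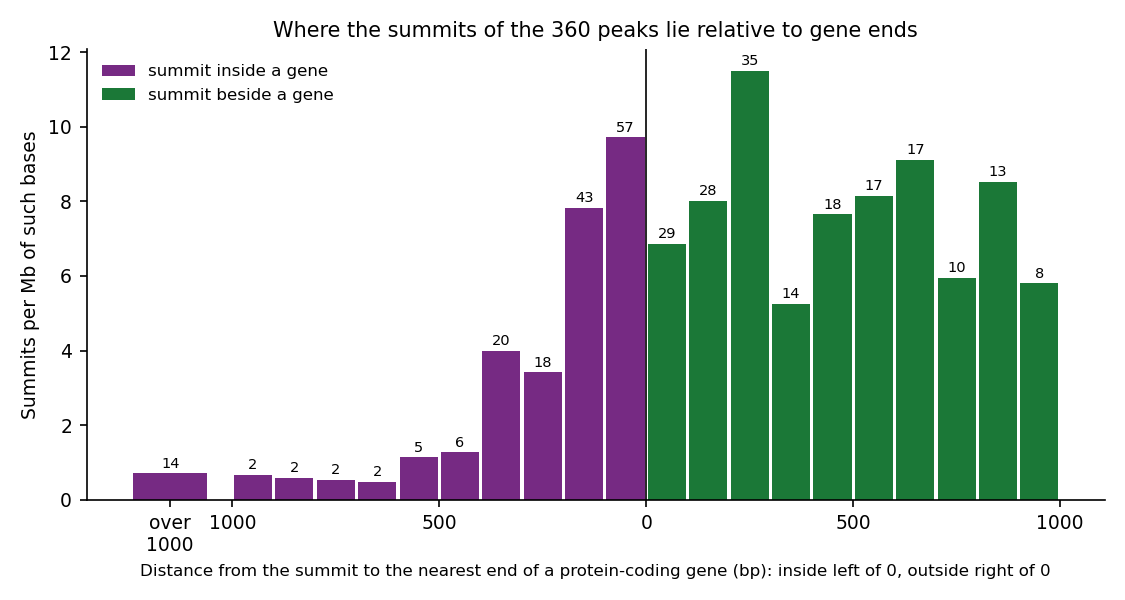
Summits of the 360 peaks per Mb of bases in bins of 100 bp by distance to the nearest end of a protein-coding gene, inside genes to the left of 0 and outside to the right; all bases deeper than 1000 bp form 1 bin. Numbers on the bars count summits: 57 lie in the outermost 100 bp inside genes, 14 deeper than 1000 bp, and 29 in the first 100 bp outside.

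Genes with a member's summit inside them, or at most 1000 bp beyond an end, are called targets. The 360 peaks gave 495 target genes, 1.80% of the 27444 protein-coding genes, and since the rule chose the peaks by this very measure, nothing is read from that share. By the same distance, 525 genes (1.91%) were targets of the whole T30 list and 370 (1.35%) of the whole T0 list. Of the members, 217 had 1 target gene, 134 had 2 and 9 had 3. A symbol was recorded for 241 of the target genes (48.7%) and for 37.8% of all protein-coding genes, so the target genes were more often named ones. Members numbered 103, 56, 59, 55 and 87 on chromosomes 1 to 5.

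For a closer description, target genes were placed in gene families together with all other genes that carry the family's name in the RefSeq table. The 66 families were drawn up after the targets were known. Neither how many of them hold a target nor how median folds rank between roles is therefore read as a result. What they show is which of several related genes had a peak within reach. A target need not be the gene nearest to the summit: 102 family genes were targets, and 84 when only the nearest gene counted. A nearer neighbouring gene is named below in some of these cases only. Genes called not targets may have T30 peaks farther away or shared with T0. With a reach of 2000 bp, 117 family genes were targets. Of the 821 family genes, 12.4% were targets, beside 1.80% of all protein-coding genes. Counts of targets within the roles below stand beside the same 1.80%. No enrichment is read from them, since the families were picked with the targets known. For orientation, the median over all 495 target genes of the highest fold at the gene was 2.87.

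Genes of nitrate uptake included 4 targets among 35, with a median fold of 4.76. Beside NRT3.1 at 12.4 stood the neighbouring high-affinity transporter genes NRT2.1 (AT1G08090), whose summit lay outside it in a peak of fold 5.40, and NRT2.2 (AT1G08100), with a separate peak of fold 2.78. The other 5 genes named NRT2 in the table, NRT2.3, NRT2.4, NRT2.5, NRT2.6 and NRT2.7, had no member peak. Among 27 genes named as members of the NPF family of nitrate and peptide transporters, AT1G59740 (NPF4.3) was the target, with a fold of 4.13, and the dual-affinity transporter gene NRT1.1 was not. None of the 35 was a target at T0, beside 1.35% of all genes, and nothing is read from this.

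Nitrate reduction, with its cofactors, had 4 targets among 11 genes, with a median fold of 4.52. At T0 it had 0, beside 1.35% of all genes, and nothing is read from this. The nitrite reductase gene NIR1 held a summit inside it with a fold of 5.37, while neither nitrate reductase gene, NIA1 or NIA2, had a member's summit within 1000 bp. UPM1, of sirohaem synthesis, was a target at 11.6, and SIR, which encodes the sirohaem enzyme sulfite reductase, at 3.67. Of 6 genes of molybdenum cofactor synthesis, which nitrate reductase needs, CNX2 was a target at 2.32. In ammonium assimilation 1 gene of each of 3 families was a target. These were the plastid glutamine synthetase gene GS2 at 3.35, the ferredoxin-dependent glutamate synthase gene GLU1 at 2.98 and the asparagine synthetase gene ASN2 at 3.69. The cytosolic glutamine synthetase genes, the glutamate synthase genes GLU2 and GLT1 and the asparagine synthetase genes ASN1 and ASN3 had no member peak.

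Reductant supply held 7 targets among 17 genes, with a median fold of 6.27. TRA2 at 10.0 and the transketolase gene AT3G60750 at 5.77 belong to the non-oxidative part of the pentose phosphate pathway. G6PD2 at 6.88 and G6PD3 at 6.27 encode glucose-6-phosphate dehydrogenases, which belong to its oxidative part. G6PD1, G6PD4, G6PD5 and G6PD6 were not targets. Both genes of the root-type ferredoxin-NADP reductase, which passes electrons from NADPH to ferredoxin in plastids without photosynthesis, had a peak with the summit inside the gene: RFNR1 at 6.47 and RFNR2 at 5.58. Neither of the leaf-type genes FNR1 and FNR2 had one. Of 4 ferredoxin genes, the root ferredoxin gene FD3 was a target at 3.34.

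Glycolysis and the first steps of glucose phosphate use held 12 targets among 27 genes, with a median fold of 3.51. The 3 genes placed in the phosphoglycerate mutase family by their names were all targets, AT1G78050 at 6.42, iPGAM2 at 3.16 and iPGAM1 at 2.27. The family may lack genes named otherwise. The iPGAM2 summit lay inside the neighbouring gene AAC1, 546 bp from iPGAM2. Of 7 glyceraldehyde-3-phosphate dehydrogenase genes, GAPC2 was a target at 7.75 and the plastid forms GAPCP-2 and GAPCP-1 at 2.53 and 2.50. GAPC1 and the photosynthetic forms GAPA, GAPA-2 and GAPB were not. Further targets were the plastid phosphoglucose isomerase gene PGI1 at 5.32, the phosphoglucomutase gene AT5G51820 at 4.16, the aldolase gene FBA8 at 3.83 and the phosphoglycerate kinase gene PGK (AT1G79550) at 2.28. The enolase genes LOS2 and ENO1 had 3.57 and 3.45, and ENOC had no member peak. One gene of this group, the aldolase gene PDE345, was a target at T0; its T30 peak shared 13 bases with a T0 peak and so was not a member.

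Enzymes of pyruvate and organic acids held 8 targets among 33 genes, with a median of 2.82. The malate dehydrogenase gene MDH (AT3G47520) at 6.02 was the only target among 9 such genes. The citrate synthase gene CSY2 had 3.80, with the summit inside the neighbouring gene AT3G58760 and 479 bp from CSY2. The isocitrate dehydrogenase genes IDH1 and IDH-VI had 2.87 and 2.78. Of 8 genes of the pyruvate dehydrogenase complex, MAB1 had 2.87, LTA3 had 2.59 and IAR4 had 2.23. The pyruvate decarboxylase gene PDC2 had 2.22, with the summit inside AT5G54970 and 296 bp from PDC2. In sugar and starch metabolism, 8 of 55 genes were targets with a median of 3.04. They were led by the neutral invertase genes A/N-InvD at 5.04 and A/N-InvB at 3.66, followed by the isoamylase gene ISA1 at 3.20 and the sugar transporter genes SWEET2 at 3.17 and SWEET17 at 2.83. TPPJ and TPS10, of trehalose phosphate metabolism, had 2.92 and 2.13, and APL1, a subunit of ADP-glucose pyrophosphorylase, had 2.77.

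**Figure D4:**
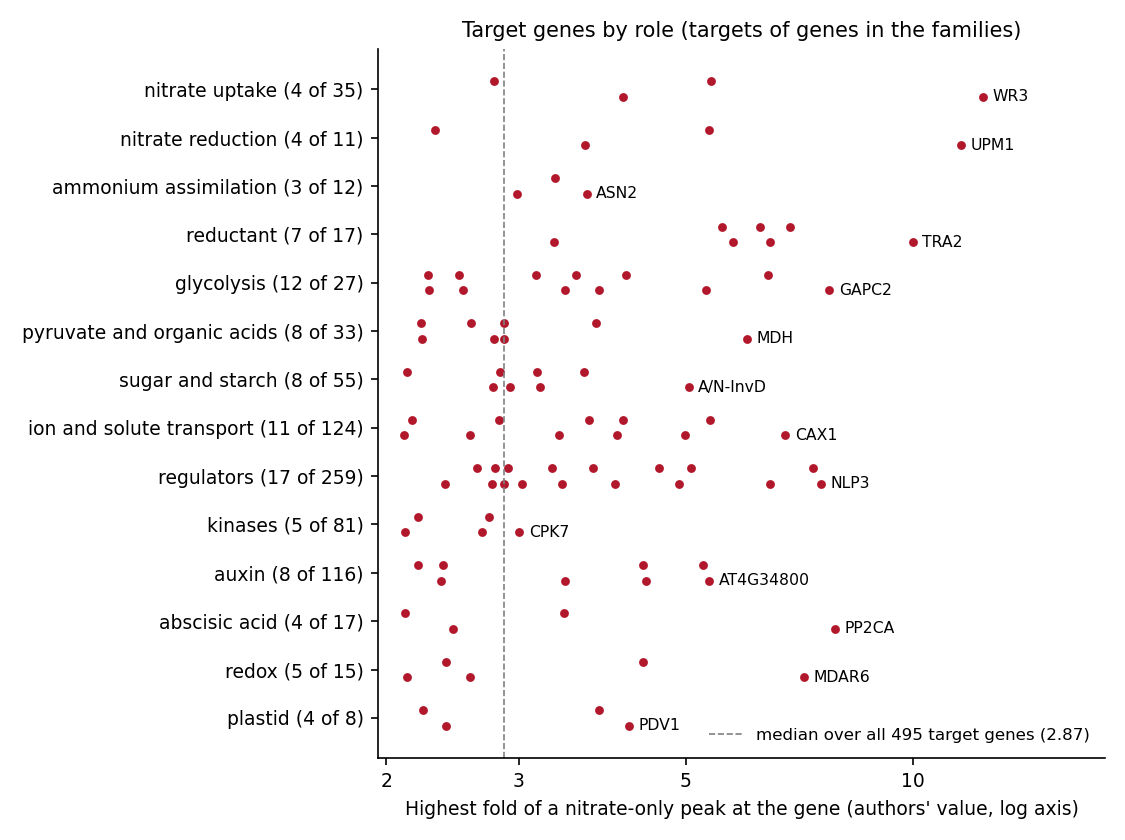
Each point is a target gene placed by the highest fold of a nitrate-only peak at it (log axis), in 14 roles with the number of targets among the genes of the role's families; the vertical position within a role carries no meaning. The gene of highest fold is named in each role (WR3 is NRT3.1), from WR3 at 12.4 down to CPK7 at 3.00, and the dashed line is the median over all 495 target genes, 2.87; cytokinin and ethylene, with 1 target each, are not drawn.

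Transport of other ions and solutes gave 11 targets among 124 genes. CAX1, a vacuolar calcium/proton exchanger, had the highest fold, 6.77, with its summit 972 bp from the gene. UMAMIT36 had 5.38, the potassium antiporter gene KEA2 4.99, the vacuolar calcium pump gene ACA4 4.13 and the aquaporin gene PIP2E 4.05. Of 12 sulfate transporter genes, SULTR4;1 had 3.72, SULTR3;5 had 2.82 and SULTR1;3 had 2.16. The SULTR4;1 summit was 643 bp from that gene and 31 bp from AT5G13560. The molybdate transporter gene MOT2 had 3.39, in a peak of 1664 bp that also reached NTT1 and AT1G80315. The cation/proton exchanger genes ATCHX8 and CHX17 had 2.58 and 2.11.

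Among 259 genes of regulator families 17 were targets, with a median of 3.42. In NLP2's own family of 9 genes, NLP3 at 7.56, NLP2 at 2.87 and NLP1 at 2.76 were targets, and NLP4 to NLP9 were not. LBD37, LBD38 and LBD39, related genes whose proteins repress part of the nitrate response, were the 3 targets among 40 LBD genes, at 7.38, 5.08 and 2.79. Of 125 MYB genes, MYB46 had 6.47, MYB28 had 3.42 and MYB48 had 2.64. The MYB46 summit lay inside DiT1, 482 bp from MYB46. TGA4, a bZIP factor known for a role in root responses to nitrate, had 4.90 and was the target among 10 TGA genes. The other targets were COL3 at 4.61, AT1G35560, a TCP gene, at 4.02, NF-YA3 at 3.76, SPL7 at 3.32, HSFC1 at 3.03, COL5 at 2.90 and HSFA1E at 2.39. The HSFA1E summit lay inside MCC1, 999 bp from HSFA1E. Over the 259 genes, 5 were targets of the T0 list, beside 1.35% of all genes, and nothing is read from this.

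Hormone genes were targets in several pathways. In auxin, 8 of 116 genes had a member peak, with a median of 3.92. They were 4 of 80 SAUR genes, with AT4G34800 (SAUR4) at 5.37, AT2G21210 (SAUR6) at 4.39, AT4G38860 (SAUR16) at 3.45 and AT4G34770 (SAUR1) at 2.38. The auxin receptor gene AFB3 had 5.27 and was the target among 6 receptor genes, the response factor gene ARF2 had 4.43, and the carrier genes AT1G76520 (PILS3) and AT5G65980 (PILS7) had 2.36 and 2.20. In abscisic acid, PP2CA at 7.88 was the target among 9 phosphatase genes, CYP707A2 and CYP707A3, whose enzymes break the hormone down, had 3.44 and 2.45, and ABF2 had 2.12. IPT3, a gene of cytokinin synthesis, had 3.1, and EBF1, an F-box gene of ethylene signalling, had 2.75. None of the family genes of these 4 hormone groups was a T0 target, whereas the wider word group cytokinin, described below, held 1. With 1.35% of all genes as T0 targets, nothing is read from this.

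Among 81 genes of 3 kinase families 5 were targets, with folds of at most 3.00: CPK7 at 3.00, CIPK23 at 2.74, MAPKKK14 at 2.68, CPK25 at 2.20 and CIPK17 at 2.12. The CPK25 summit lay inside AT2G35900, 858 bp from CPK25. CIPK23 is the kinase that phosphorylates NRT1.1. In redox metabolism, MDAR6 had 7.18, the catalase gene CAT2 had 4.39, the superoxide dismutase gene CSD2 had 2.58, the haemoglobin gene HB1 had 2.40 and HOT5, the S-nitrosoglutathione reductase gene, had 2.13. CSD2 and ATCHX8 shared 1 peak. Both PDV genes, which act in plastid division, were targets, PDV1 at 4.20 and PDV2 at 2.40; PDV2 and HB1 shared 1 peak. The carbonic anhydrase genes BCA4 and CA2 had 3.83 and 2.24.

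At 17 genes stood 2 member peaks, and no gene had more. AT1G25550 had the highest such pair, 6.92 and 5.58, with the summits 3457 bp apart on opposite sides of the gene. LBD38 was likewise flanked, with peaks of 5.08 and 4.59 whose summits were 2786 bp apart. AT1G21000, with 3.15 and 2.72, and AT1G67910, with 4.60 and 2.13, were the other 2 genes with a peak beyond each end. In LBD37 (7.38 and 2.33), NLP3 (7.56 and 2.40), SAG21 (4.22 and 3.76) and MAPKKK14 (2.68 and 2.17), 1 summit lay outside the gene and the weaker one inside it. AT1G32910 (8.40 and 2.22), AT3G28690 (4.53 and 3.25), AT5G54170 (5.16 and 2.41), AT1G68670 (2.83 and 2.19), FAD2 (2.53 and 2.27), an oleate desaturase gene, and TDT (3.01 and 2.46) also had 1 summit outside and 1 inside. EBF1 held both of its summits inside, 3284 bp apart, with folds of 2.75 and 2.33. AT1G25420 and AT1G25422 shared both of their peaks, 3.03 and 2.24.

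For 4 of the 495 target genes the T0 list also had a summit inside or within 1000 bp, at another place. The folds come from lists called separately and are given side by side without comparison. CYP76G1, a cytochrome P450 gene, had a fold of 5.93 in the T30 list and 2.06 in the T0 list, with summits 1910 bp apart. NLP2 had 2.87 in the T30 list and 2.38 in the T0 list, with summits 1726 bp apart. TDT, the tonoplast dicarboxylate transporter gene, had 3.01 and 2.46 in the T30 list and 1.96 in the T0 list. AT1G14710 had 2.48 in the T30 list and 2.27 in the T0 list, 3867 bp apart. The NLP2 peak had its summit inside the neighbouring gene IDH1, so the same peak makes both genes targets. NLP2 sequence is also present in the construct, and what part of the signal there came from the construct was not tested.

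Neighbouring genes of 1 family sometimes shared a peak, and both then counted as targets. UGT73B2 and UGT73B1 shared a peak of fold 2.65, with the summit 266 and 297 bp from them. CYP76C1 and CYP76C2 shared one of 2.57, with the summit inside CYP76C2 and 774 bp from CYP76C1. GRP19 and GRP20 shared one of 2.66, at 718 bp from GRP19 and 240 bp from GRP20. Members also lay near each other in places, with 23 adjacent pairs within 5000 bp, whereas the median distance between adjacent members was 174 kb.

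Words in the gene names gave a second description, in 29 groups of genes that share a word. Ferredoxin in the name marked 4 targets among 16 genes (25.0%), led by RFNR1, RFNR2 and FD3, and 0 at T0. Dehydrogenase marked 10 targets among 149 genes (6.71%) and 0 at T0. Auxin marked 6 of 140 (4.29%) and 0 at T0. Transporter marked 12 of 284 (4.23%) and 3 at T0, led by NRT3.1, DiT1 and NRT2.1. Phosphatase marked 5 of 144 (3.47%), led by PP2CA and PP2CG1, and 1 at T0. Ubiquitin or F-box marked 6 of 154 (3.90%), led by AFB3, and 2 at T0, heat shock 2 of 52 (3.85%) and 0 at T0, and abscisic 1 of 9 (11.1%) and 0 at T0. Shares near the 1.80% of all genes were found as well: kinase marked 13 of 583 (2.23%) and 8 at T0, cytochrome P450 5 of 232 (2.16%) and 5 at T0, and transcription factor 2 of 110 (1.82%) and 2 at T0. A symbol was recorded for 48.7% of target genes and for 37.8% of all protein-coding genes. The 1.80% may therefore be too low a yardstick for groups formed by name. In 8 groups no gene was a member's target: WRKY with 72 genes, homeobox with 67, histone with 65, ethylene with 61, bZIP with 49, cytokinin with 32, gibberellin with 17 and cell wall with 8. The bZIP, cytokinin, gibberellin and cell wall groups held 1 T0 target each and the other 4 held 0. Nothing is read from these zeros, nor from those at T0, since at 1.80% and 1.35% of all genes the smaller groups could hold none. These groups miss genes whose name lacks the word, such as IPT3, EBF1 and the bZIP genes TGA4 and ABF2, all of them targets.

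Genes without a protein product were near members as well. Within the same 1000 bp lay 45 of 3480 genes of long non-coding RNAs (1.29%), 3 of 625 tRNA genes (0.480%), 1 of 287 snoRNA genes (0.348%) and 4 of 326 microRNA genes (1.23%), and 14 members had their summit inside a gene of a long non-coding RNA. The microRNA gene MIR2936 had a peak of fold 3.76, which is the weaker SAG21 peak. MIR827, a microRNA gene known for its response to phosphate starvation, had one of fold 2.85 at 680 bp, MIR8166 one of 2.40 and MIR843 one of 2.18. Of 3917 pseudogenes, 3 (0.0766%) were near a member. By the rule every member lay in or within 1000 bp of a protein-coding gene, so nothing is read from these shares.

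At the edges of the rule, peaks just inside and just outside had similar folds. The 5 members nearest to the 1000 bp limit lay 951 to 984 bp from AT1G32530 (2.66), AT1G25550 (6.92), CAX1 (6.77), GT2 (2.37) and SAG21 (4.22), with folds in brackets. The 5 nitrate-only peaks just beyond it lay 1011 to 1045 bp from LAC16 (3.41), AT3G17520 (2.28), AT1G12990 (2.60), BT2 (6.81) and bHLH34 (3.54). The 5 members nearest to a T0 peak were those of CYP76G1 with AT3G52960, IDH1 with NLP2, SESA4, TDT and AT5G66580, at 850 to 2001 bp. The 5 shared peaks of smallest overlap shared 13 bases at PDE345 (fold 6.88), 227 at AT2G43150 (2.36), 395 at AGP3 with AT4G40080 (2.14), 408 at AT1G67870 (2.22) and 411 at BXL1 with AT5G49350 (2.12). The 5 members of lowest fold, 2.1 to 2.12, lay at ftsh10 with AT1G07520, AT3G06750, CHX17, AT4G28170 with AT4G28180 and ATB2 with AT1G60720.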

How the data were processed

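The authors deposited 4 peak lists, 1 of the immunoprecipitated and 1 of the input libraries per time. The submitters' processing notes name MACS2 2.1.1, Bowtie2 2.3.4.1 and SAMtools 1.7, and TAIR10 as build. The deposited values per peak are a fold (ratio) over background, −log10 p and −log10 q, a score and a summit offset; the score and −log10 p were not used. Read depth is unknown from them. Peaks were joined to a RefSeq gene table (TAIR10.1) in Python 3.11.15 with numpy 2.4.6, pandas 2.3.3 and scipy 1.17.1; figures used matplotlib 3.10.9. This assumes equal nuclear coordinates in both builds. Positions are 1-based on TAIR10. Code was tested on simulated lists. Named genes were targets of the 25 highest and 5 lowest folds, family members, top word-group genes, genes with 2 peaks, and peaks at the rule's edges and of extreme width, only some of which are printed; the genes at the member of highest fold are not reported here. The members and lists were chosen with earlier results of these data known. Strand, motifs and sequence were not analysed here, so gene ends replaced the planned gene starts.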

Additional observations from a re-analysis of the deposited data

How the results depend on the processing

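Of 50 values of 6 results under 9 alternatives, 43 stayed within 1.5 times the reported count or within the 95% interval of the reported value (Clopper-Pearson for shares, order statistics for the median, both for counting error only), and 7 moved. Keeping only T30 peaks at or above the median fold of the list, by construction, left 197 members and 276 target genes and gave a median fold of 3.83. With summits within 500 bp of a gene, 58.0% of members had the summit inside a gene and 90.8% lay within 500 bp of a gene end; with 2000 bp the shares were 40.1% and 62.9%, as the wider reach adds bases outside genes. Limiting the T0 list to its 257 peaks at or above the lowest q kept at T30 gave 364 members. Counting only the gene nearest to each summit gave 351 target genes, 84 of them in the families. A reach of 500 bp gave 370 target genes and one of 2000 bp gave 715. Beside the reported 495, these counts all passed the wide limit of 1.5 times. Leaving out peaks that overlap an input peak left 360 by construction, since no member did. The values of all 6 results under that alternative could not move, and they are counted among the 43. No paired analysis was possible because each list holds pooled replicates, and for the same reason no replicate could be left out. Alternatives on motifs and on gene starts were not run, since sequence and strand were not used here. Read depth is unknown and limits what absence from the T0 list shows.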
